A study of Drosophila melanogaster with 4 samples.

Results

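The broad domains of ubiquitinated histone H2B described here were chosen by their width, 20 kb or more, among the enriched regions in the combined list of a chromatin immunoprecipitation and sequencing study of Drosophila melanogaster larvae. A domain had to overlap, by at least 1 bp, a region in the lists of both immunoprecipitated replicates. Of 5627 enriched regions in the combined list, 282 (5.01%) met the rule, and every region of that width met it, so the overlap condition removed none. The 282 domains added up to 9.89 Mb, or 27.9% of all bases in enriched regions. The chromatin came from wild-type Oregon-R third-instar larvae and was immunoprecipitated with the mouse monoclonal antibody NRO3, which was raised to a branched peptide at the ubiquitin attachment site of human H2B. There were 2 immunoprecipitated samples, replicates 1 and 2, and 2 inputs of unselected chromatin, which were not analysed here. The replicates' own lists held 5135 and 5150 regions. Nothing in the labels tells whether separate batches of larvae were used for the replicates, so their spread may be technical, and read depth is unknown because the lists hold no counts. Whole larvae mix many tissues, so a low score from fewer marked cells and one from less mark per cell cannot be told apart.

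Ubiquitin is attached to H2B near its carboxyl end by the ubiquitin ligase Bre1, which works with an enzyme of the Rad6 family and with the Paf1 complex that travels with RNA polymerase II. In flies the mark is removed by Nonstop, a protease of the SAGA coactivator complex. Because it is laid down during transcript elongation, the mark is known as one of transcribed gene bodies, and a long transcribed gene or a run of adjacent ones can be covered as a single stretch. Which genes lie under the domains was not examined, and the domains are given by position on FlyBase release 5.

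Width chose the domains, so widths are a description only. They ran from 20.0 to 114 kb, with a median of 30.1 kb and a middle 50% between 23.7 and 41.1 kb. There were 139 domains under 30 kb, 109 of 30 to 50 kb and 34 of 50 kb or more. The narrowest domains inside the limit were 20003 bp on 2L (from 5108310), 20005 bp on 3L (from 12130144) and 20045 bp on 3R (from 18536668), with scores of 0.791, 1.33 and 1.14. Just outside it were a region of 19991 bp on 3L (from 14341172, score 0.815) and 2 regions of 19963 bp, on X (from 14693730, score 0.926) and on 3L (from 5158044, score 1.26). The scores on both sides of the limit overlapped. All scores are the authors' and their unit is not stated. Over the domains they ran from 0.574 to 2.49, with a median of 1.31. All 282 domains lay on the 5 major arms. The widest of the 163 regions elsewhere was 12.5 kb, at 566080 to 578584 on chromosome 4.

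Nearly all bases of the domains were also called in each replicate. Replicate 1 covered 94.9% of the domains' bases and replicate 2 covered 97.1%. Per domain the lowest, median and highest covered shares were 55.9%, 96.8% and 99.98% in replicate 1, and 61.3%, 98.6% and 100% in replicate 2. At least 90% of the domain was called for 234 domains in replicate 1 and for 259 in replicate 2. Replicate 2 covered more of the domain in 191 of 282 cases. A single replicate region of 20 kb or wider was present at 197 domains in replicate 1 and at 224 in replicate 2. This held in both replicates at 189 domains and in neither at 50. How the combined list was made from these replicates is not given in the sources used here, and this overlap is no independent support for the domains.

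The outer edges of the domains were placed close together in all 3 lists, with the replicates' edges mostly a little further in. Of 564 domain edges, the outermost replicate edge was inside the domain for 519 in replicate 1 and 484 in replicate 2, and outside it for 44 and 77. The median shift inwards was 174.5 bp in replicate 1 and 90.5 bp in replicate 2, and 420 (74.5%) and 487 (86.3%) of the edges lay within 500 bp of the domain's edge. Large shifts were rare. A replicate region ran over 5 kb beyond the domain at 2 edges in replicate 1 and at 1 edge in replicate 2, and stopped over 5 kb short at 1 edge, in replicate 1. No replicate region joined 2 domains.

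Despite this coverage, 167 of the 282 domains were divided in at least 1 replicate, a majority that did not hold under every setting tried. A break is taken here as an uncalled stretch inside a domain between 2 regions of a replicate's list. A total of 115 domains (40.8%) were a single region in both replicates, 139 (49.3%) were whole in replicate 1 and 164 (58.2%) in replicate 2. Among all 3940 combined regions met in both replicates, 77.1% were a single region in both, 82.3% in replicate 1 and 85.6% in replicate 2. These are mostly far narrower regions, which leave less room for a break. A further 94 domains were broken in both replicates, 49 in replicate 1 only and 24 in replicate 2 only. Replicate 1 held more pieces than replicate 2 in 82 domains, fewer in 39 and the same number in 161. Domains of 4 or more pieces numbered 31 in replicate 1 and 14 in replicate 2.

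**Figure D1:**
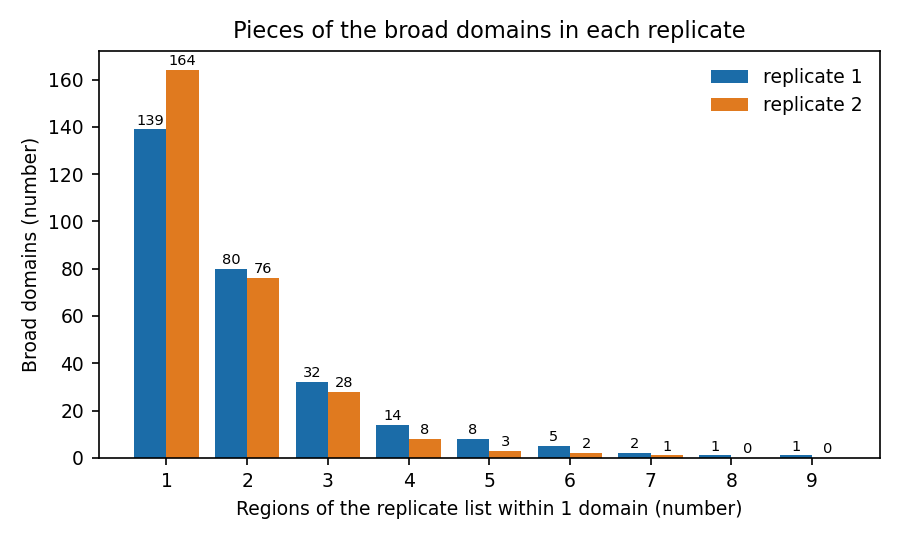
Number of broad domains (vertical axis) by the number of regions of a replicate's list found within the domain (horizontal axis), for replicate 1 (blue) and replicate 2 (orange). Single pieces are the most common class, with 139 domains in replicate 1 and 164 in replicate 2, and replicate 1 has the longer tail, up to 9 pieces.

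Breaks were short. Replicate 1 held 270 breaks with a median length of 521.5 bp, and replicate 2 held 183 with a median of 421 bp. The middle 50% lay between 196 and 1119 bp in replicate 1 and between 144.5 and 845 bp in replicate 2. Breaks under 500 bp made up 49.3% of those in replicate 1 and 56.3% of those in replicate 2, while 29 and 12 were over 2 kb. The longest was 7344 bp in replicate 1 and 4806 bp in replicate 2. All breaks together took up 228 kb, or 2.31% of the domains' bases, in replicate 1 and 115 kb, or 1.16%, in replicate 2. The rest of the uncalled sequence lay at the outer edges. When gaps under 500 bp were not counted as breaks, 178 of the 282 domains were whole in both replicates, and with gaps under 1 kb not counted, 214 were. With the top 50% of scores in each list, 164 of 277 domains were counted as whole in both. That setting also drops low-scoring pieces from the replicate lists, so a divided domain can then count as whole. With combined regions under 500 bp apart joined, 80 of 356 were.

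Per length, breaks were fewer in the domains than in regions of 10 to 20 kb. Replicate 1 had 2.73 breaks per 100 kb of domain, against 3.96 in the 608 regions of 10 to 20 kb that both replicates met. Replicate 2 had 1.85 per 100 kb of domain, against 2.95. Within the domains the rate was again lower for wider ones. It was 3.33, 2.72 and 1.92 breaks per 100 kb in replicate 1 for domains of 20 to 30 kb, 30 to 50 kb and 50 kb or more, and 2.05, 1.87 and 1.54 in replicate 2. A domain of greater width still had more chances to be broken, and the share whole in both replicates was 46.0%, 37.6% and 29.4% in these 3 classes. These differences were not tested, since regions of a list are not replicates. The classes were also cut by width in the combined list, and a region is wide there only where that list left no gap. A lower rate that comes from this choice cannot be told apart from any other.

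In replicate 1, breaks were split evenly between the outer and the inner 50% of the domains, though fewer lay in the outermost parts. In replicate 2, more breaks lay in the outer 50%. The outer 25% of the width on each side, together 50% of a domain, held 135 of 270 breaks (50.0%) in replicate 1 and 111 of 183 (60.7%) in replicate 2. The outer 10% on each side, together 20% of a domain, held 13.3% of the breaks in replicate 1 and 23.5% in replicate 2. A break cannot lie at the very edge, because a called piece must remain beyond it.

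The domains with the most breaks, ranked by number and not per length, were not the widest ones alone. Of these 10, 6 lay on X, which held 58 of all 282 domains. The domain at 968634 to 1028962 on X (60.3 kb, score 1.12) was split into 7 pieces in replicate 1 and into 6 in replicate 2. Its coverage was nevertheless 93.4% in replicate 1 and 97.3% in replicate 2, since its longest break was 1422 bp. The domain at 5505670 to 5543248 on 2R (37.6 kb, score 0.642) held 6 and 7 pieces in replicates 1 and 2, none longer than 12.3 kb.

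The domain at 7725304 to 7761578 on 3R (36.3 kb, score 0.689) held 6 pieces in each replicate but was covered to 55.9% in replicate 1 and 81.3% in replicate 2. It contained the longest break of all, 7344 bp in replicate 1, where replicate 2 had called further pieces. The domain at 18621318 to 18655910 on 3L (34.6 kb, score 0.734) was the most divided in a single replicate, with 9 pieces in replicate 1 and 3 in replicate 2. Replicate 2 held a piece of 24.4 kb there, and the longest in replicate 1 was 6.11 kb.

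The other 5 domains on X differed in how alike the replicates were. The domain at 12097532 to 12188128 (90.6 kb, score 1.55) was 7 pieces in replicate 1, and in replicate 2 it was 2 pieces parted by a break of 25 bp. The domain at 9276334 to 9390258 (114 kb) had 8 pieces in replicate 1 and 3 in replicate 2. Those at 14756938 to 14799396 (6 and 5 pieces), 8860294 to 8882918 (5 and 5) and 10445562 to 10470574 (5 and 4) were divided to a like degree in replicates 1 and 2. The last of the 10, at 15767490 to 15837874 on 3R (70.4 kb, score 0.834), had 5 pieces in replicate 1 and 4 in replicate 2.

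At the other end stood wide domains with no break in either replicate. The widest of these was at 7891952 to 7977656 on 2L, where the combined list gave 85.7 kb, replicate 1 gave 85.5 kb and replicate 2 gave 85.4 kb. The domain at 19247094 to 19332372 on X measured 85.3 kb in the combined list, 85.0 kb in replicate 1 and 85.2 kb in replicate 2. The others were at 21225146 to 21298666 on 3R (73.5 kb), at 506262 to 576624 on 3L (70.4 kb) and at 18319640 to 18387590 on 2L (68.0 kb). Both replicates covered at least 97.2% of each of these 5, and the scores were 1.27 on 3R and 1.62 to 1.92 for the other 4. The domain on 3R stood 443 bp from another broad domain, whereas the one from 18319640 on 2L had no other enriched region within 50 kb on either side.

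Breaks were most frequent in domains with low scores. When the 282 domains were put in order of the authors' score and divided into 4 groups of like size, the lowest group (71 domains, scores 0.574 to 1.13) had 6.46 breaks per 100 kb in replicate 1 and 4.00 in replicate 2, and held 147 of the 270 breaks of replicate 1 and 91 of the 183 of replicate 2. The highest group (70 domains, 1.56 to 2.49) had 0.659 and 0.403. The share of domains whole in both replicates was 12.7% in the lowest group, 38.0% and 42.9% in the middle groups, and 70.0% in the highest.

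The same order held at like width. Among domains under 30 kb, the median score was 1.06 for the 42 broken in both replicates and 1.42 for the 64 whole in both, and the full ranges overlapped (0.574 to 1.63 and 0.824 to 2.49). Across the 282 domains Spearman's rank correlation was -0.526 between score and the number of breaks in both lists together, 0.133 between score and width, and 0.180 between width and breaks. These are descriptions across regions called and scored from the same libraries, and a relation that the scoring or calling itself creates cannot be told apart.

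**Figure D2:**
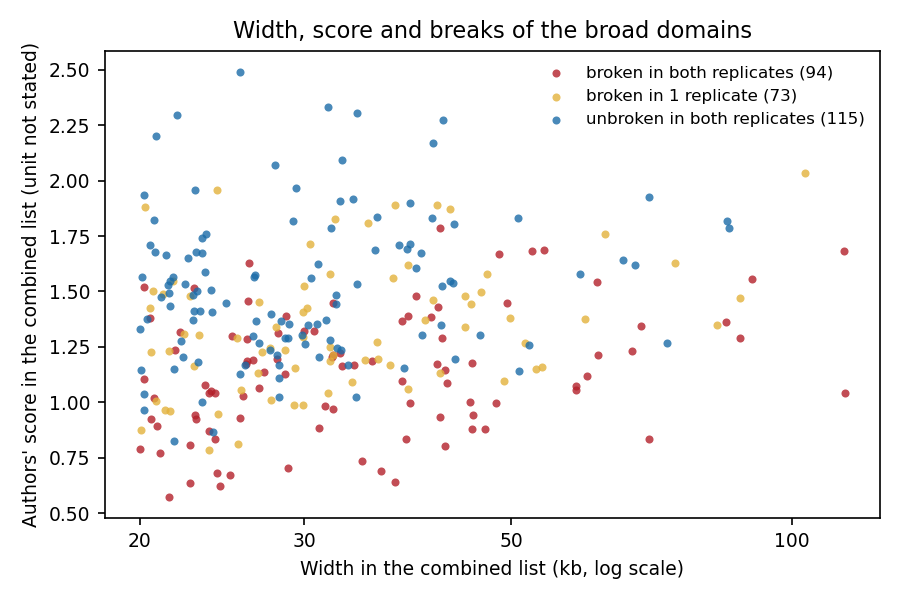
Each point is a broad domain, placed by its width in the combined list (kb, log scale) and the authors' score (unit not stated), and coloured by whether it was broken in both replicates, in 1, or in neither. Domains broken in both replicates lie towards low scores (median 1.13) and unbroken ones higher (median 1.502). The full ranges of score overlap (0.574 to 1.79 and 0.824 to 2.49).

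The 5 least covered domains in each replicate all had scores of 0.824 or less, and 3 domains were among the 5 in both replicates. These 3 were at 8860294 to 8882918 on X (69.9% in replicate 1, 61.3% in replicate 2), at 10445562 to 10470574 on X (69.8% and 70.8%) and at 21382896 to 21407296 on 3L (57.9% and 79.9%). In the last of these a region of replicate 2 began 7391 bp before the domain, while replicate 1 ended 7052 bp short of its far edge. Replicate 1 also covered little of the domain from 7725304 on 3R, described above, and of the one at 17789976 to 17811470 on 2R (58.0%, against 90.1% in replicate 2). The domain on 2R had the lowest score of all domains, 0.574, and 6 pieces in replicate 1, the longest 2.66 kb. Replicate 2 covered little of the domain at 5108310 to 5128312 on 2L (70.8%, against 92.6% in replicate 1) and of that at 12369934 to 12391714 on 2L. The second of these was 1 region in both replicates but trimmed at both ends, to 80.1% in replicate 1 and 73.8% in replicate 2.

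A minority of breaks overlapped a break of the other replicate, for which 1 bp in common was enough. The bases in breaks of both replicates made up 15.7% of break bases in replicate 1 and 31.3% in replicate 2. Of the breaks in replicate 1, 68 of 270 (25.2%) overlapped a break of replicate 2, and of those in replicate 2, 71 of 183 (38.8%) overlapped a break of replicate 1. No level expected by chance was computed, and breaks of both replicates were frequent in the same low-scoring domains. Counting breaks within 1 kb of each other raised the shares to 37.0% and 55.7%. Long breaks were shared more often, with 30 of 76 breaks of 1 kb or more in replicate 1 (39.5%) and 22 of 34 in replicate 2 (64.7%). Under 1 kb the shares were 19.6% and 32.9%, and a long break also meets another by chance more readily than a short one. Shared breaks lay in 58 domains.

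The longest overlaps between breaks were in 2 domains under 23 kb. At 19935088 to 19958010 on 2L (22.9 kb) a break ran from 19950461 to 19953951 in replicate 1 and from 19950686 to 19954166 in replicate 2. At 8860294 to 8882918 on X it ran from 8871628 to 8875321 in replicate 1 and from 8870056 to 8874861 in replicate 2. In both the 2 replicates left over 3 kb uncalled in common (3266 and 3234 bp), and the combined list nonetheless gave a single region.

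Short gaps at which domains ended were mostly left unbridged in both replicates. The combined list held 105 gaps under 500 bp between a domain and its neighbour. In 99 of these (94.3%) neither replicate bridged the gap, in 5 a single replicate bridged it, and in 1 both did. Such a result is close to built in, since a stretch left uncalled in the combined list ends a region there. Bridging is also another measure than the overlap of breaks, so end gaps and breaks cannot be compared by these shares. When combined regions under 500 bp apart were joined before the domains were chosen, those gaps came to lie inside domains and were counted as breaks. The share of replicate 1 breaks met by a break of replicate 2 was then 52.1%.

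Most domains had another enriched region close by. The uncalled gap to the next region had a median of 3060 bp over 564 sides, with a middle 50% from 752 to 14287 bp. It was 2709 bp for regions of 10 to 20 kb and 2543 bp for all enriched regions on the major arms. A neighbour stood within 500 bp of 103 domains (36.5%), against 37.4% of all enriched regions on the major arms, so close neighbours were about as frequent beside domains as elsewhere. Such a neighbour stood on both sides of 8 domains (2.84%), against 4.06% of all enriched regions on the major arms. At the other extreme, 59 of 564 sides (10.5%) opened on a gap of over 50 kb, against 8.32% of sides for all regions, and 17 domains had no neighbour within 10 kb on either side. With the top 50% of scores in each list, the median gap beside a domain was 9513 bp, since low-scoring neighbours were then left out.

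The neighbours themselves were mostly narrow. Their median width was 4.17 kb, against 3.61 kb for the neighbours of all regions, and 22.0% of them were 10 kb or wider, against 16.2%. The next region on at least 1 side was another broad domain for 45 of 282 domains (16.0%), against 10.0% of all enriched regions on the major arms. Joining regions under 500 bp apart would widen 103 domains and raise the median width to 33.4 kb. The widest joined stretch was then 121 kb, at 21177766 to 21298666 on 3R, made of 2 domains.

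Sequence beyond the domains was covered more than the arms as a whole. In the 50 kb on each side of a domain, with the domain left out, a median of 41.3% of bases lay in other enriched regions of the combined list. It was 38.4% beside regions of 10 to 20 kb and 37.2% beside all regions. The same flanks were covered at a median of 33.2% in replicate 1 and 35.3% in replicate 2, against 29.4% and 31.2% beside all regions. The major arms were covered at 29.4% overall and at 22.97% outside the domains. The surroundings of regions in every width class were thus covered above the level of the arms, and the excess beside broad domains over regions of 10 to 20 kb was small and was not tested. It held at every 10 kb step out to 100 kb, and was 45.3% against 42.0% from 10 to 20 kb and 33.3% against 30.9% from 90 to 100 kb. Single domains ranged from 0% to 91.8%. The 4 domains with no other region within 50 kb were that from 18319640 on 2L and those on 3L from 10508924, 10974698 and 13221406.

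**Figure D3:**
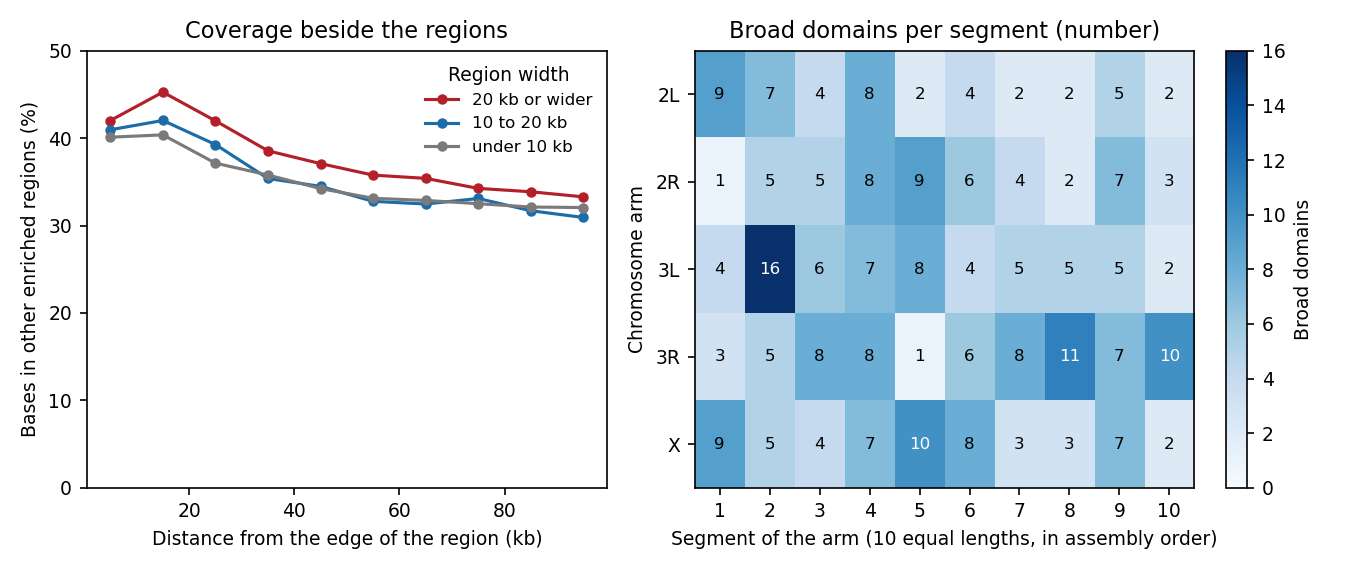
Left, percent of bases in other enriched regions of the combined list by distance from the region's edge in 10 kb steps, for regions of 20 kb or wider, of 10 to 20 kb and under 10 kb. Right, number of broad domains in 10 segments of equal length on each of the 5 major arms. Coverage is lower at 90 to 100 kb than within 10 kb of the edge for all 3 width classes, and segment 2 of 3L holds the most domains, 16.

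Along the arms the domains were unevenly spaced, with close pairs and empty stretches of over 2 Mb. The distance between successive domains on an arm had a median of 212 kb and a mean of 360 kb ± 434 (SD, 277 distances), and 20 were over 1 Mb. Measured to the nearest other domain on either side, 56 domains (19.9%) had one within 10 kb, 116 (41.1%) within 50 kb and 165 (58.5%) within 100 kb. With a width limit of 30 kb in place of 20 kb, 21.7% of the then 143 domains had another within 50 kb. The matching shares over all enriched regions were not computed, and no expected number of groups was. Neither these shares nor the groups below can thus be read as grouping beyond chance. The counts of domains in windows of 1 Mb had a variance (2.75) not far above their mean (2.37).

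The closest pairs were parted by gaps shorter than the median break of replicate 1. On X, domains at 1472448 to 1502352 (29.9 kb) and 1502362 to 1523082 (20.7 kb) were 9 bp apart. On 3R, domains at 25598560 to 25620006 and 25620086 to 25640662 were 79 bp apart. A gap of 117 bp separated domains at 14734008 to 14756820 and 14756938 to 14799396 on X. On 3R a gap of 245 bp parted those at 6362264 to 6407630 and 6407876 to 6440670, and one of 431 bp those at 10491138 to 10523250 and 10523682 to 10550292. Neither replicate joined any of these pairs, so each gap, however short, was a boundary in all 3 lists.

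Chaining domains at most 50 kb apart gave 53 groups that held 116 domains, while 166 domains stood alone. Of the groups, 44 were pairs, 8 were of 3 and 1 was of 4. The group of 4 lay at 10491138 to 10679304 on 3R and spanned 188 kb, of which the combined list covered 86.5%, replicate 1 84.1% and replicate 2 84.0%. Its domains were 26.6 to 43.5 kb wide. The longest group of 3, at 21177766 to 21426930 on 3R, spanned 249 kb, of which the combined list covered 89.3%, replicate 1 85.1% and replicate 2 83.9%.

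On X, groups of 3 lay at 19247094 to 19412060 (165 kb) and at 4942056 to 5105344 (163 kb), and were 93.0% and 90.2% enriched in the combined list. The first of these was made of domains whole in both replicates, whereas in the second each domain was broken in at least 1 replicate. A group of 3 at 6424424 to 6584814 on 3L (160 kb) took in 12 combined regions and was covered at 70.7% in replicate 1 and 80.1% in replicate 2. The lowest share within a group among these 5 was thus in the one with the most separate regions.

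The most solitary domain was at 16601736 to 16635948 on 2L (34.2 kb, score 1.53), with no other domain for 1684 kb. It was 1 region in both replicates and ended short of the domain's far edge in both, by 1976 and 1898 bp, so that it was covered to 94.2% in replicate 1 and 94.3% in replicate 2. The next were at 12094096 to 12124824 on 3R (1415 kb from another domain), 11014060 to 11067288 on 2L (1303 kb), 2243826 to 2273844 on 3R (1094 kb) and 19063106 to 19091732 on 2R (882 kb). Distance from other domains did not always mean empty surroundings. The flanks of the domain on 2R were only 3.51% covered, but those of the rest of these 5 were 29.4% to 52.2% covered, by narrower regions.

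The longest stretches without a domain were 2.68 Mb and 2.38 Mb on 3R, at 12124825 to 14808301 and 2273845 to 4653617 (2683 and 2380 kb), and the last 2142 kb of 3L. The first 2 were not unmarked. They held 103 and 83 regions, covering 17.4% and 15.3% of the sequence, the widest 17.8 and 16.1 kb. The end of 3L held 28 regions over 5.58%. On X the longest such stretch, at 14799397 to 16458379 (1659 kb), held 115 regions and was covered at 30.0%, level with the major arms as a whole, yet none of its regions passed 19.6 kb.

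All 5 arms carried the domains at a similar density, lowest on 2L. There were 58 domains on X (2.59 per Mb), 62 on 3L (2.53), 67 on 3R (2.40), 50 on 2R (2.36) and 45 on 2L (1.96). Of all enriched regions on the arm, domains made up 5.90% on 3L, 5.59% on 3R, 5.30% on X, 4.66% on 2L and 4.32% on 2R. By that share 2R and not 2L was lowest. The domains took up 9.02% of 3L, 8.85% of X, 8.53% of 3R, 8.31% of 2R and 6.75% of 2L. Median widths ran from 27.4 kb on X to 32.0 kb on 2L. In 117 whole windows of 1 Mb, the number of domains ran from 0 in 13 windows to 7 in 2, with a median of 2, a mean of 2.37 and a variance of 2.75. The 2 richest windows were 3 to 4 Mb on 3L and 1 to 2 Mb on X.

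Within arms the counts varied more. When each arm was cut into 10 segments of equal length, segment 2 of 3L held 16 domains and segment 8 of 3R held 11, while segment 1 of 2R and segment 5 of 3R held 1 each. The segments next to the centromere, which are the last of 2L, 3L and X and the first of 2R and 3R, held 1 to 3 domains each. Counts this low were also found away from the centromere, with 2 each in segments 5, 7 and 8 of 2L and segment 8 of 2R. No count of all enriched regions per segment is set beside these.

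Domains on X were more often broken than those on the autosome arms. In replicate 1 the rate was 4.84 breaks per 100 kb on X, against 2.20 on the autosome arms together and 1.67 to 2.53 on each of them. In replicate 2 it was 2.52 on X, against 1.68 together and 1.22 to 1.99 on each. Of the 58 domains on X, 17 (29.3%) were whole in both replicates, against 98 of 224 (43.8%) on the autosome arms, with 36.0% to 48.9% on each arm. Over all domains X thus had the highest break rate in both replicates, and stood further apart from the others in replicate 1.

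By score, the share of whole domains was lower on X in the lowest and second groups. In the third and highest groups, with 18 and 9 domains on X, it was close to that on the autosome arms. In the lowest group 0 of 18 domains on X and 9 of 53 (17.0%) on the autosome arms were whole in both replicates, and in the second group 3 of 13 (23.1%) and 24 of 58 (41.4%). In the third group it was 8 of 18 (44.4%) on X and 22 of 52 (42.3%) on the autosome arms, and in the highest 6 of 9 (66.7%) and 43 of 61 (70.5%). The break rate in replicate 1 was nevertheless higher on X in all 4 groups. It was 2.78 per 100 kb against 1.64 on the autosome arms in the third group, and 1.22 against 0.582 in the highest. In replicate 2 the rate was higher on X in the lowest, second and highest groups, with 0.609 against 0.374 in the highest. In replicate 2 alone, domains of the third group were less broken on X, with 1.47 breaks per 100 kb and 66.7% whole, against 1.58 and 53.8% on the autosome arms. Median scores were 1.27 on X and 1.31 on the autosome arms. Without the 10 most broken domains, 6 of them on X, the rate was 3.93 per 100 kb on X against 1.97 on the autosome arms in replicate 1, and 1.90 against 1.51 in replicate 2. In replicate 2, 57.7% of the domains on X were then whole, above 2R (55.1%) and 3R (56.9%). Neither the sex of the larvae nor the read depth on X is given, and no test was run, since domains along an arm are neighbours and not replicates.

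**Figure D4:**
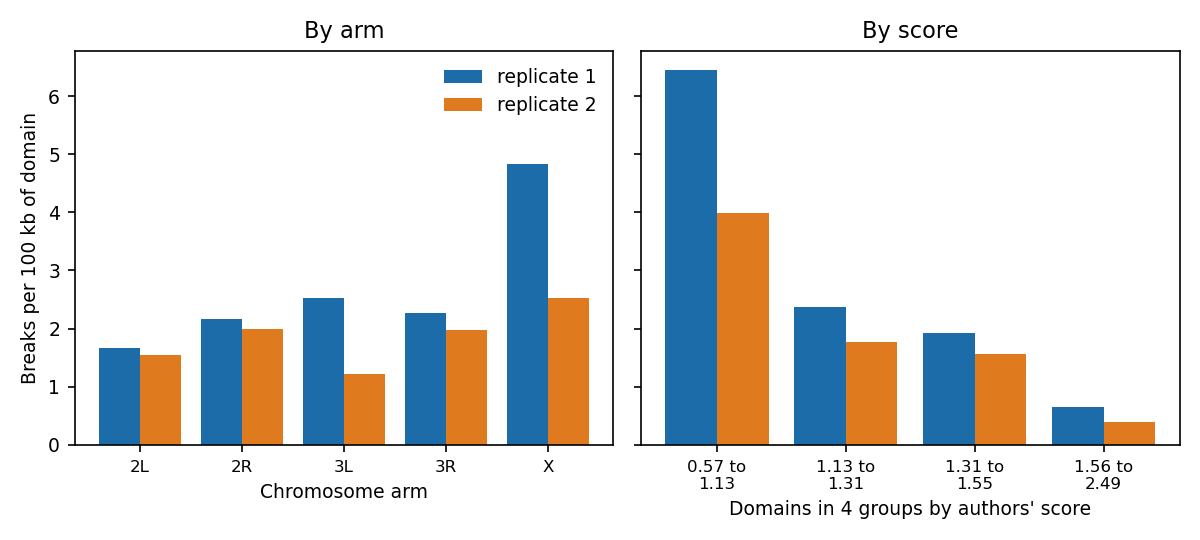
Breaks per 100 kb of broad domain in replicate 1 (blue) and replicate 2 (orange), by chromosome arm on the left and by group of the authors' score on the right. X is highest in both replicates (4.84 and 2.52), and the rate is lower in each group of higher score in both replicates.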

How the data were processed

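Enriched regions of 2 immunoprecipitated samples, each with its own list, and the combined list of the replicate set were used as the authors deposited them. Per the file headers, positions are 1-based on FlyBase release 5. The submitters' processing notes name Bowtie 0.12.7, a read aligner. What called the regions, with what thresholds and what use of the inputs, is not given in the sources used here. The score of each region is the authors' deposited score, with no stated unit, and was used only to describe and rank regions within a list. The 1 region marked as depleted was left out.

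Widths, overlaps (at least 1 bp), breaks, gaps and groups were computed with Python 3.11.15, numpy 2.4.6 and scipy 1.17.1, and drawn with matplotlib 3.10.9. The functions were tested on 200 simulated domains with known breaks, and recovered the breaks of 200. No statistical test was run, since the domains were chosen on the same lists. Samples were grouped by title. The domains, the rules and the regions named were chosen with earlier results of these data known. The rule named the 10 domains with the most breaks, the 5 largest groups, the 5 most solitary domains, the 5 closest pairs, the 5 least covered domains per replicate, the 5 widest whole domains, those next to the width limit, and the arms. The longest shared breaks, the stretches without domains, the windows and segments of arms, the 4 domains without neighbours and the comparison of X by score were chosen after their values were seen. A gene table on release 6 was not used here.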

Additional observations from a re-analysis of the deposited data

How the results depend on the processing

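Requiring that 50% of the domain be covered in each replicate left all 6 measures as they were. It could remove no domain, since the lowest covered share was 55.9% in replicate 1 and 61.3% in replicate 2. A width limit of 15 kb gave 463 domains, 200 of them whole in both replicates, a median gap of 2837 bp and 52.1% with another domain within 50 kb. A limit of 30 kb gave 143 domains, 51 whole, 2954 bp and 21.7%. Joining combined regions under 500 bp apart gave 356 domains, 80 of them whole in both replicates against 115 of 282, 52.1% of replicate 1 breaks met, a median gap of 5075 bp, 45.2% within 50 kb and a flank coverage of 39.0%. The top 50% of scores gave 277 domains, a gap of 9513 bp and a flank coverage of 32.9%. Of these domains 164, a majority, were counted as whole in both replicates. Low-scoring pieces had been dropped from the replicate lists too, so this count does not show that fewer domains were divided. Not counting gaps under 500 bp and under 1 kb left 178 and 214 whole domains. Grouping at 25 and 100 kb gave 31.6% and 58.5%, and flanks of 20 and 100 kb were covered at 43.6% and 37.2%. In the list of a single replicate, with the other left out, there were 206 to 229 regions of 20 kb or wider, a median gap of 3505.5 to 3604 bp, 37.1% to 38.8% within 50 kb and flanks covered at 36.5% to 38.3%. With breaks counted in 1 replicate only, 139 to 164 domains were whole. Sharing of breaks needs both replicates, so leaving 1 out gave no value. The share of replicate 1 breaks met was 25.2%, with a 95% Wilson interval over breaks, which covers counting error only and treats them as independent, from 20.4% to 30.7%. No paired analysis was possible because the result comes from no test and the inputs have no list used here. Read depth is unknown, so whether breaks mark lack of reads was not tested.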

Other observations

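One region of 20 kb or wider in a replicate list lay at no broad domain. In replicate 1 it ran from 7459551 to 7480754 on 3R (21.2 kb, score 1.73). The combined list gave the same stretch, 7459476 to 7480764, as 2 regions, the wider of 19.6 kb, which is under the width limit. The other 205 of 206 regions of that width in replicate 1, and all 229 in replicate 2, overlapped a domain.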
